A study of Mus musculus with 8 samples.

Results

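Nuclear receptors are transcription factors, many of them switched by a small lipid-soluble ligand, and 46 genes of this family were examined, taken as the entries of the deposited table whose gene symbol was one of a fixed list of 46 names, out of 22274 genes in all. Of these 46 receptors, 35 had enough reads to be tested and 11 did not. RNA was sequenced from a mouse kidney line called RFB, described as fibroblasts, in 4 ad-CRE libraries and 4 ad-GFP libraries. All 8 libraries came from cells given the profibrotic cytokine TGF-β, so none without it is here to set them against. The ad-CRE cells had received an adenovirus labelled Cre, the recombinase that cuts DNA between loxP sites, and the ad-GFP cells an adenovirus labelled GFP. The series names Suv39h1, a histone H3 lysine 9 methyltransferase, as its target, but the labels give no account of the allele meant for recombination and do not say whether the line is a single clone. Nor do they say that replicates were separate cultures, so the p-values measure only how far these libraries differ, and that spread may be technical.

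Library totals were 17572152 to 22297598 counts in ad-CRE and 15998257 to 20920828 counts in ad-GFP, and 39 to 41 of the 46 receptors had at least 1 count in each ad-CRE library, against 41 to 43 in each ad-GFP library. Suv39h1 was at 32.3, 32.9, 33.4 and 31.6 CPM in ad-CRE replicates 1 to 4, against 37.2, 43.6, 44.1 and 41.3 CPM in ad-GFP replicates 1 to 4 (log2 fold change −0.35, SE 0.053, edgeR adjusted p = 8.65e-07), where CPM is a count scaled by the size of its library. Smarca4, which encodes BRG1, the motor protein of the SWI/SNF chromatin remodellers, was at 34.3 ± 3.2 CPM in ad-CRE and 288 ± 11.1 CPM in ad-GFP (SD, n = 4 each; log2 fold change −3.07), a far larger fall than that of Suv39h1. Markers of several cell types moved with the groups. Summed over 20 tested tubular epithelial markers and 3 untested ones, the level was 5604 to 5796 CPM in ad-CRE and 2935 to 3189 CPM in ad-GFP, with the water channel gene Aqp2 at 0. A few high genes weigh heavily in this sum, with the keratin gene Krt8 alone at 1983 CPM in ad-CRE and 745 CPM in ad-GFP. At an edgeR adjusted p under 0.05, 12 of the 20 rose and 6 fell (Cdh16, Lrp2, Cubn, Slc12a1, Cldn2 and Havcr1). Summed fibroblast markers were at 2523 to 2677 CPM in ad-CRE and 4095 to 4243 CPM in ad-GFP. In bulk RNA, fewer cells of a type and less RNA per cell cannot be told apart, and the part of these shifts in the receptor results was not tested.

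A nuclear receptor has a zinc-finger domain that reads a short DNA half-site and a domain that, in many members, holds a hormone, a vitamin derivative or a fatty acid. Steroid receptors bind DNA as pairs of like molecules, whereas the receptors for retinoic acid, thyroid hormone, vitamin D, fatty acids and oxysterols pair with a retinoid X receptor. Ligand makes the receptor swap corepressors for coactivators, and in the kidney such receptors govern salt handling, lipid use and the response to injury.

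The promoters of the receptors with the largest falls, Pparg and Thrb, and with the largest rises, Esr1 and Nr1h4, are shown because they mark both ends of the order of fold changes, the top 2 in each direction among the 35 receptors tested. Each line gives 250 bases before to 50 after a start site listed by RefSeq for GRCm38.p6, on the strand of the gene, with the half-site AGGTCA, the element read by many receptors that pair with a retinoid X receptor, in capitals on either strand.
Pparg, chr6:115360894-115361193, plus strand: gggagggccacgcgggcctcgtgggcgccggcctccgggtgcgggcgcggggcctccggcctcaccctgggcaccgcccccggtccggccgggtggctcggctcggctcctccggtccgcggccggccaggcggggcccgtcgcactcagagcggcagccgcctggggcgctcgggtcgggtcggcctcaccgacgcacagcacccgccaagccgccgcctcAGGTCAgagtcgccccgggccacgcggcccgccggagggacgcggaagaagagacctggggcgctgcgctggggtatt
Thrb, chr14:17660710-17661009, plus strand: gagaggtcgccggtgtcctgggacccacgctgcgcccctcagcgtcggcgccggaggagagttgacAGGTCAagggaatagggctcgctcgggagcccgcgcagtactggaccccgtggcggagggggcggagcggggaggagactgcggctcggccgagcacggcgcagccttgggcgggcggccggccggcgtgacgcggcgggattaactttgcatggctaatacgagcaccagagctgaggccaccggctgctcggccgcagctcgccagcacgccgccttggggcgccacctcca
Esr1, chr10:4611739-4612038, plus strand: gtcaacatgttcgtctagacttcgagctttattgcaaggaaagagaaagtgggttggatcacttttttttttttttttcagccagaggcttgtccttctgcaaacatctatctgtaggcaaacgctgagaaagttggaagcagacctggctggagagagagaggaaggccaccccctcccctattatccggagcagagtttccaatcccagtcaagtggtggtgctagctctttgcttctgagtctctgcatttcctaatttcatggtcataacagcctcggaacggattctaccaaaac
Nr1h4, chr10:89506609-89506908, minus strand: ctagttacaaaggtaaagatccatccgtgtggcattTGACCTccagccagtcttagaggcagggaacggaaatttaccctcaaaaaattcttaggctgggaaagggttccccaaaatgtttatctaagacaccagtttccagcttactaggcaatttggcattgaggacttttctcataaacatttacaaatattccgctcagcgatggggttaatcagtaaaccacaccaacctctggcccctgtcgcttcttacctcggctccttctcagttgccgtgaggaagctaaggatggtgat
The half-site begins 28 bases before the listed start in Pparg and 184 bases before it in Thrb. In Nr1h4 it begins 214 bases before the start and lies on the other strand, where it reads TGACCT along the printed line, and the Esr1 window holds none. Promoter windows were found for 42 of the 46 receptors, 63 windows in all, and 11 of these 42 receptors had a half-site in at least 1 window. A gene can thus have several windows, of which 1 is printed, and a printed window may have been taken for its half-site. The half-site was present in 2 of 9 receptors that rose and in 5 of 18 with a window that fell. Counted by window, 12 of the 63 held it, against 16.3% of all 32851 promoter windows. The DR1 element, a direct repeat of the half-site with a single base between the copies (either strand, and so counted under the half-site as well), was in 0 of the 63 windows and in 0.04% of all windows. Such a match is a description of letters only.

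Most receptors that were tested differed between the groups, and falls outnumbered rises. Of the 35 tested, 29 passed the threshold of an edgeR adjusted p under 0.05 (82.9%, against 73.1% of all 13702 genes tested), 9 that rose (25.7%, against 36.8% of all genes) and 20 that fell (57.1%, against 36.3% of all genes). The median log2 fold change of ad-CRE over ad-GFP was −0.31 over the 35 receptors and 3.87e-05 over all genes tested. In 26 receptors (74.3%) every ad-CRE library lay on one side of every ad-GFP library, 7 above and 19 below, where 66.2% of all genes did so, 33.4% above and 32.8% below. Changes of 1 log2 unit or more were found in 1 receptor that rose, Esr1 (4.84% of all genes rose so far), and in 5 that fell, Pparg, Thrb, Nr1h3, Esrrg and Nr4a3 (9.43% of all genes fell so far).

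**Figure D1:**
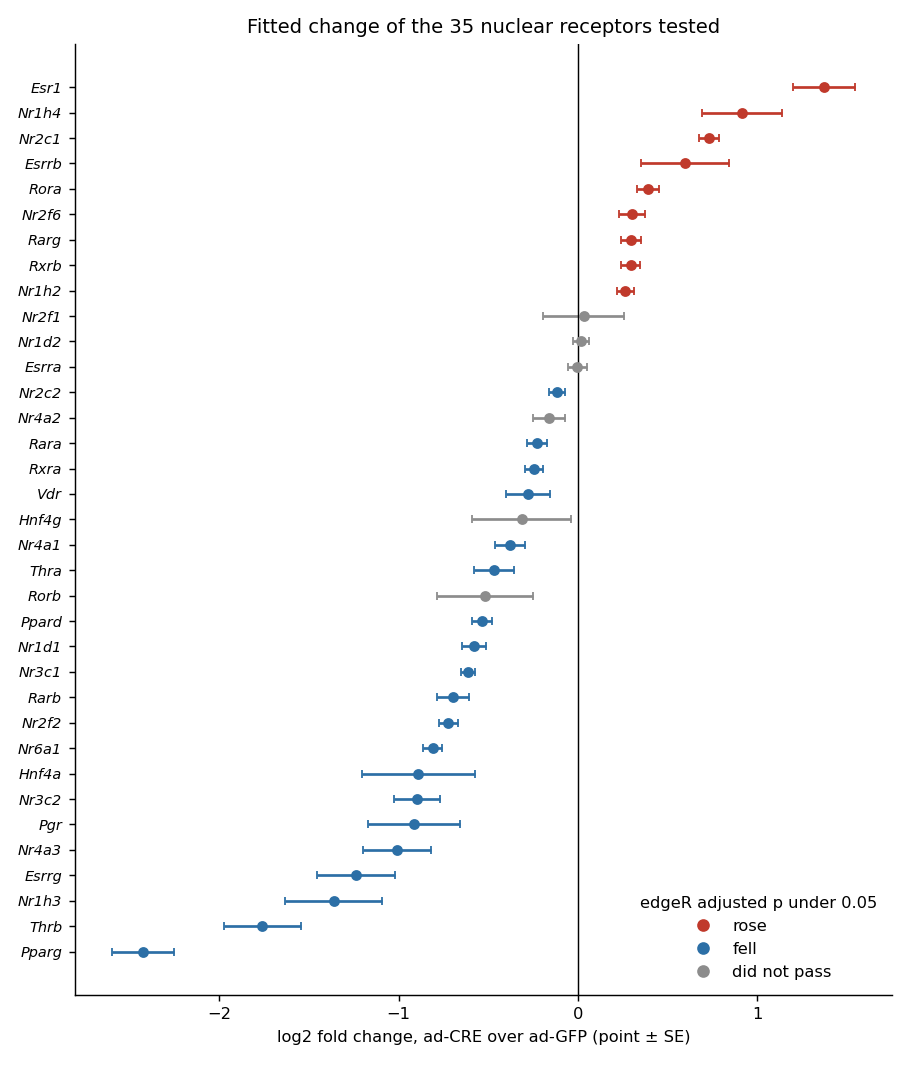
Fitted log2 fold change of ad-CRE over ad-GFP (x axis, point ± SE) for each of the 35 nuclear receptors tested (y axis, ordered by value), coloured by whether the receptor rose, fell or did not pass at an edgeR adjusted p of 0.05. Values run from −2.43 for Pparg to 1.37 for Esr1, with 20 receptors called below 0 and 9 above.

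The changes of at least 1 log2 unit lay among receptors under 10 FPKM. Levels between genes are compared here in deposited FPKM, which is scaled by gene length. Among the 9 receptors with a mean of at least 10 FPKM, 4 rose and 3 fell, the median log2 fold change was 0.02 and the largest change 0.72 (Nr2f2), near the 6713 genes in that range, of which 42.4% rose and 34.9% fell with a median of 0.03. Among the 13 receptors between 1 and 10 FPKM, 2 rose and 10 fell, with a median of −0.38, whereas the 5116 genes in that range had a median of 0.01, 35.9% that rose and 35.5% that fell. Among the 13 receptors under 1 FPKM, 3 rose and 7 fell, with a median of −0.89, and the 1873 genes in that range had a median of −0.37, 19.5% that rose and 43.7% that fell. Of the 6 receptors with a called change of at least 1 log2 unit, 5 were under 1 FPKM and the other, Pparg, was between 1 and 10 FPKM. How many of all genes changed so far within each range was not counted, so the split of these 6 receptors has no background. On the log2(FPKM + 1) scale, which compresses differences between low values, these 6 had smaller log2 fold changes, −1.32 for Pparg, −0.53 for Thrb, −0.54 for Nr1h3, −0.32 for Esrrg, −0.33 for Nr4a3 and 0.44 for Esr1, and all 6 still passed (limma).

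**Figure D2:**
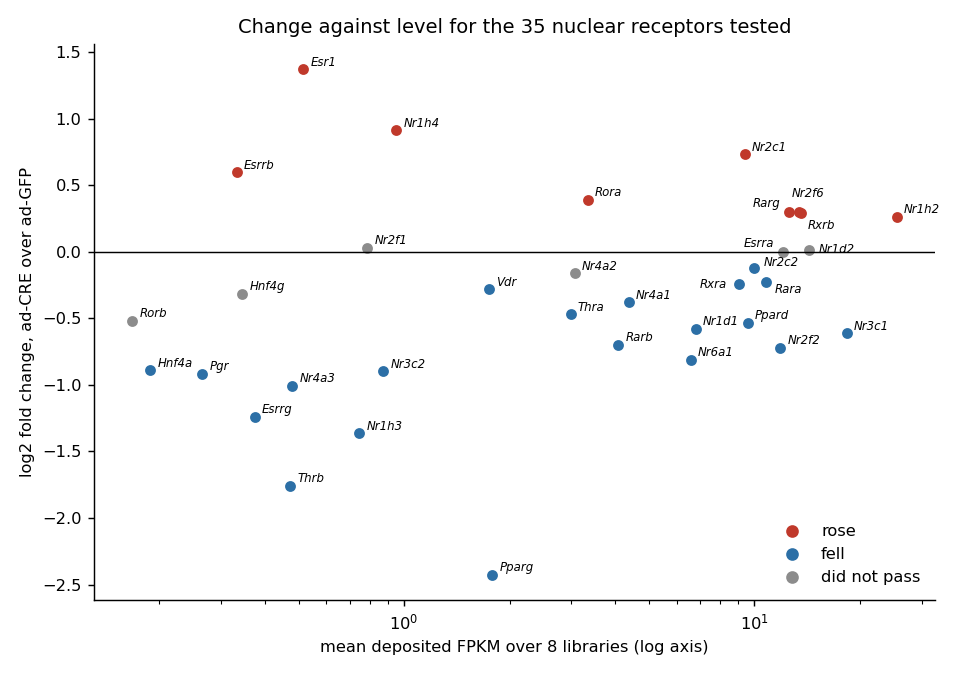
Mean deposited FPKM over the 8 libraries (x axis, log scale) against the fitted log2 fold change of ad-CRE over ad-GFP (y axis) for the 35 receptors tested, coloured by call. The 9 receptors at 10 FPKM or more stay within 0.72 log2 units of 0, whereas those between 1 and 10 FPKM run from −2.43 for Pparg to 0.73 for Nr2c1 and those under 1 FPKM from −1.76 for Thrb to 1.37 for Esr1.

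The retinoid X receptors, the shared partners of the receptors for small non-steroid ligands, moved in opposite directions. Rxra was at 35.3, 36.9, 34 and 38.6 CPM in ad-CRE replicates 1 to 4, against 43.7, 41, 42.8 and 43.7 CPM in ad-GFP replicates 1 to 4, and fell (log2 fold change −0.24, SE 0.049, edgeR adjusted p = 5.18e-05). Rxrb was at 35.8, 38.2, 35.8 and 35.1 CPM in ad-CRE, against 29.3, 32.5, 27.3 and 28.9 CPM in ad-GFP, and rose (log2 fold change 0.29, SE 0.054, edgeR adjusted p = 1.76e-05). Neither gene's groups overlapped. Their summed level with Rxrg was 22.9 ± 1.13 FPKM in ad-CRE and 22.4 ± 1.8 FPKM in ad-GFP (SD, n = 4 each), and the share of Rxrb in it was 65.0% ± 0.818 in ad-CRE and 54.7% ± 1.72 in ad-GFP. The remaining member, Rxrg, had 4 counts in all in ad-CRE and 11 in ad-GFP and was not tested.

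Both fatty acid receptors of the PPAR class that could be tested fell, Pparg with the largest change of the 35 receptors. Pparg (ENSMUSG00000000440, GRCm38 chromosome 6, 115360951 to 115490399, plus strand), the receptor that drives fat cell formation, was at 1.09, 0.78, 1.06 and 1.27 CPM in ad-CRE, against 5.59, 5.46, 5.77 and 5.84 CPM in ad-GFP. It was 5.38-fold lower in ad-CRE, and the groups lay far apart (log2 fold change −2.43, SE 0.17, edgeR adjusted p = 1.15e-13). Ppard, the most abundant PPAR here, was at 22.1, 22.4, 21.1 and 20.4 CPM in ad-CRE and 30.5, 30.9, 30.2 and 33.2 CPM in ad-GFP, a smaller fall without overlap (log2 fold change −0.53, SE 0.055, edgeR adjusted p = 5.98e-10). Summed PPAR transcript was 8.8 ± 0.314 FPKM in ad-CRE and 14.1 ± 0.678 FPKM in ad-GFP, and the share of Pparg in it 6.78% ± 0.966 in ad-CRE and 21.2% ± 1.37 in ad-GFP (SD, n = 4 each). Ppara, which governs fatty acid oxidation in liver and tubule, had 24 counts in ad-CRE and 12 in ad-GFP and was not tested.

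**Figure D3:**
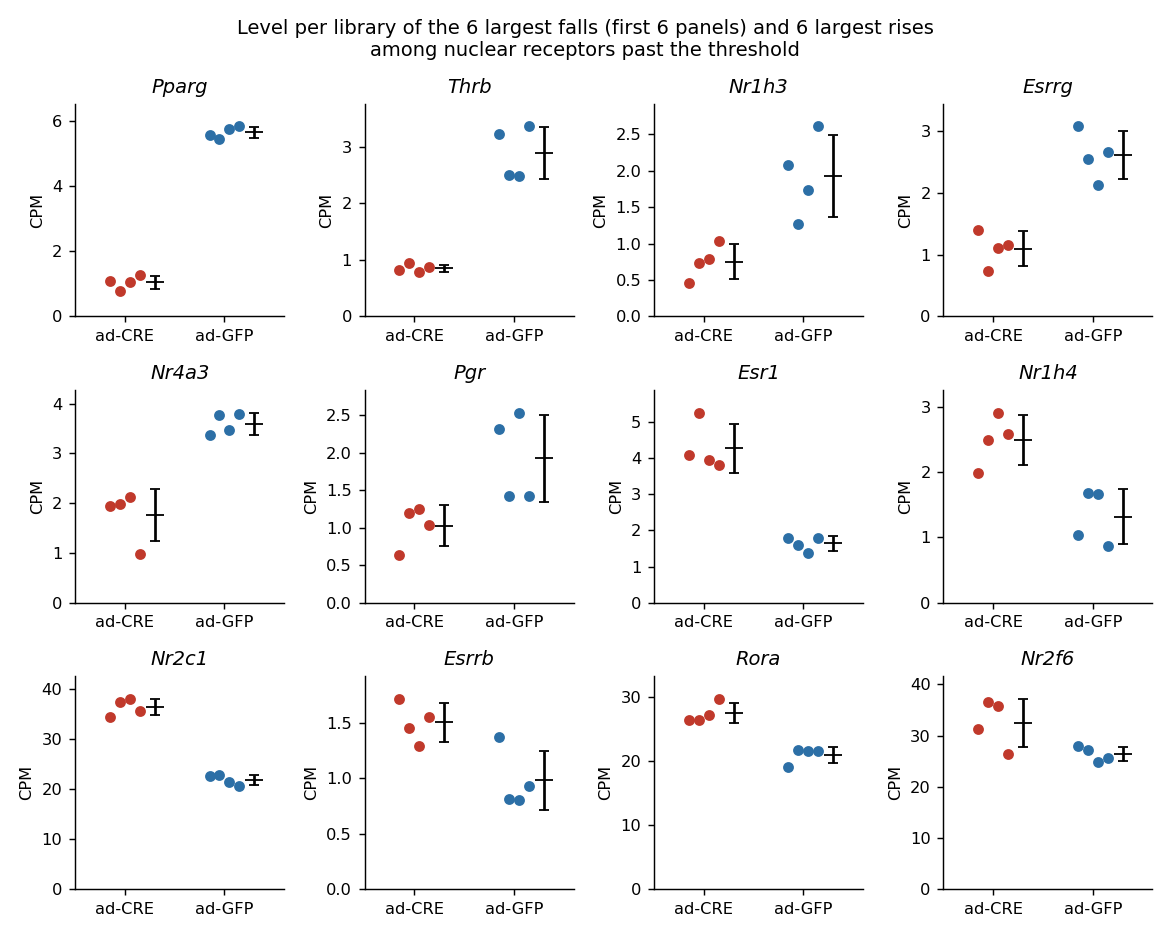
CPM in each library (y axis, from 0 in each panel) for the 6 receptors with the largest falls (first 6 panels) and the 6 with the largest rises past the threshold, with the 4 ad-CRE libraries left of the 4 ad-GFP libraries and bars for the mean ± SD. In Pparg the ad-CRE libraries sit at 0.78 to 1.27 CPM and the ad-GFP libraries at 5.46 to 5.84 CPM, and in Esr1 the ad-CRE libraries sit at 3.80 to 5.26 CPM and the ad-GFP libraries at 1.38 to 1.80 CPM.

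The oxysterol receptors, which sense cholesterol surplus, and the bile acid receptor changed in both directions. Nr1h2, encoding LXRβ (ENSMUSG00000060601, chromosome 7, 44549616 to 44553951, minus strand), had the highest level of the family, 27.9 ± 2.03 FPKM in ad-CRE and 23.1 ± 1.4 FPKM in ad-GFP (SD, n = 4 each). In CPM it was at 48.6, 52.7, 48.9 and 47.3 in ad-CRE, against 43, 41.1, 39.7 and 40.4 in ad-GFP, and rose (log2 fold change 0.26, SE 0.047, edgeR adjusted p = 8.78e-06). Nr1h3, encoding LXRα (ENSMUSG00000002108, chromosome 2, 91184061 to 91202834, minus strand), was at 0.452, 0.728, 0.787 and 1.04 CPM in ad-CRE, against 2.08, 1.28, 1.73 and 2.61 CPM in ad-GFP, and fell (log2 fold change −1.36, SE 0.27, edgeR adjusted p = 5.22e-05). The LXR transcript was thus nearly all Nr1h2 in both groups, 98.5% ± 0.501 of summed FPKM in ad-CRE and 95.6% ± 1.15 in ad-GFP. Nr1h4, encoding the bile acid receptor FXR (ENSMUSG00000047638, chromosome 10, 89454234 to 89533585, minus strand), was at 1.99, 2.5, 2.92 and 2.59 CPM in ad-CRE, against 1.04, 1.68, 1.67 and 0.87 CPM in ad-GFP, and rose without overlap (log2 fold change 0.91, SE 0.22, edgeR adjusted p = 0.000492). The xenobiotic receptors Nr1i2 (PXR) and Nr1i3 (CAR) had 3 and 2 counts in ad-CRE, against 4 and 1 in ad-GFP, and were not tested.

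Of the retinoic acid receptors, Rarg rose while Rara and Rarb fell. Rarg was at 38.5, 37.2, 41.3 and 34.9 CPM in ad-CRE, against 32.4, 28.6, 30.1 and 33 CPM in ad-GFP (log2 fold change 0.30, SE 0.056, edgeR adjusted p = 2.52e-05). Rara was at 25.7, 27, 29.2 and 24 CPM in ad-CRE, against 32.6, 29.7, 30.7 and 31.4 CPM in ad-GFP (log2 fold change −0.23, SE 0.058, edgeR adjusted p = 0.000759). Rarb, itself a classical target of retinoic acid, was at 7.69, 8.01, 7.03 and 8.18 CPM in ad-CRE, against 11.7, 13.6, 12.5 and 12.3 CPM in ad-GFP (log2 fold change −0.70, SE 0.089, edgeR adjusted p = 3.83e-08). None of the 3 overlapped between groups. Summed RAR transcript was 26.7 ± 2.14 FPKM in ad-CRE and 28.1 ± 1.21 FPKM in ad-GFP, with Rarg at 51.2% ± 1.51 of it in ad-CRE and 40.6% ± 0.978 in ad-GFP (SD, n = 4 each). Of the exon bases of Rarb, 34.1% are shared with Top2b on the opposite strand, and the sources used here do not give whether the counts used strand. Top2b rose in ad-CRE (log2 fold change 0.20, edgeR adjusted p = 7.95e-07), the direction opposite to that of Rarb.

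Both thyroid hormone receptors fell, and Thrb by more. Thrb (ENSMUSG00000021779, chromosome 14, 17660261 to 18038090, plus strand) was at 0.814, 0.937, 0.787 and 0.864 CPM in ad-CRE, against 3.22, 2.5, 2.48 and 3.35 CPM in ad-GFP, 3.39-fold lower in ad-CRE (log2 fold change −1.76, SE 0.21, edgeR adjusted p = 1.55e-08). Thra was at 5.75, 5.83, 5.04 and 5.01 CPM in ad-CRE, against 7.34, 7.35, 7.26 and 8.07 CPM in ad-GFP (log2 fold change −0.47, SE 0.11, edgeR adjusted p = 0.000352). The groups did not overlap in either gene, and the share of Thrb in their summed FPKM was 7.68% ± 4.28 in ad-CRE and 17.2% ± 3.15 in ad-GFP (SD, n = 4 each). Vdr, the vitamin D receptor, was at 5.84, 7.7, 6.48 and 7.72 CPM in ad-CRE, against 9.75, 6.58, 9.4 and 7.7 CPM in ad-GFP, and these groups overlapped. It passed narrowly (log2 fold change −0.28, SE 0.12, edgeR adjusted p = 0.0396), and no longer passed when ad-CRE replicate 1 or 3 or ad-GFP replicate 1 or 3 was left out (edgeR adjusted p = 0.158, 0.0933, 0.186 and 0.125).

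Among the receptors for steroid hormones, 3 of the 4 tested fell and Esr1 rose. Nr3c1, the glucocorticoid receptor and the family's second most abundant transcript (14.5 ± 1.32 FPKM in ad-CRE and 22.2 ± 0.891 FPKM in ad-GFP), was at 84, 75.9, 74 and 84.4 CPM in ad-CRE, against 120.1, 121, 125 and 120.4 CPM in ad-GFP (log2 fold change −0.61, SE 0.039, edgeR adjusted p = 8.39e-15). Nr3c2, the mineralocorticoid receptor that answers to aldosterone, was at 3.26, 3.38, 2.82 and 3.34 CPM in ad-CRE, against 6.06, 5.36, 6.34 and 6.09 CPM in ad-GFP (log2 fold change −0.90, SE 0.13, edgeR adjusted p = 3.9e-07). Pgr, the progesterone receptor, was at 0.633, 1.2, 1.25 and 1.04 CPM in ad-CRE, against 2.32, 1.43, 2.54 and 1.43 CPM in ad-GFP (log2 fold change −0.92, SE 0.26, edgeR adjusted p = 0.00211). All 3 fell without overlap between groups. Esr1, oestrogen receptor α (ENSMUSG00000019768, chromosome 10, 4611593 to 5005614, plus strand), was at 4.07, 5.26, 3.93 and 3.8 CPM in ad-CRE, against 1.8, 1.58, 1.38 and 1.8 CPM in ad-GFP, 2.59-fold higher in ad-CRE (log2 fold change 1.37, SE 0.17, edgeR adjusted p = 3.68e-08). This was the largest rise among the 35 receptors tested, at a level of only 0.748 ± 0.156 FPKM in ad-CRE and 0.282 ± 0.0435 FPKM in ad-GFP (SD, n = 4 each). Esr2, oestrogen receptor β, had 7, 13, 3 and 8 counts in ad-CRE, against 2, 3, 2 and 1 in ad-GFP, too few for the test. The lowest ad-CRE count equalled the highest ad-GFP count, and with no filter on low counts the gene passed (log2 fold change 1.81, edgeR adjusted p = 0.00945).

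The oestrogen-related receptors, which bind no oestrogen and govern mitochondrial genes, went separate ways. Esrra, by far the most abundant of them, did not pass: it was at 24.8, 26.4, 25.3 and 25.3 CPM in ad-CRE, against 24.5, 25.5, 25.7 and 26.5 CPM in ad-GFP (log2 fold change −0.00, SE 0.054, edgeR adjusted p = 0.948). Esrrg was at 1.4, 0.728, 1.11 and 1.15 CPM in ad-CRE, against 3.08, 2.55, 2.13 and 2.67 CPM in ad-GFP, and fell without overlap (log2 fold change −1.24, SE 0.22, edgeR adjusted p = 8.27e-06). Esrrb was at 1.72, 1.46, 1.3 and 1.55 CPM in ad-CRE, against 1.37, 0.816, 0.807 and 0.932 CPM in ad-GFP, and passed as a rise although the groups overlapped (log2 fold change 0.60, SE 0.25, edgeR adjusted p = 0.0303). That call was lost with DESeq2 (adjusted p = 0.0654), and when ad-CRE replicate 1 or 4 or ad-GFP replicate 2, 3 or 4 was left out (edgeR adjusted p = 0.0884, 0.0525, 0.0895, 0.082 and 0.057).

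Of the receptors of the circadian loop, 1 repressor fell and 1 activator rose. Nr1d1, encoding the repressor REV-ERBα, was at 13.8, 16.1, 14.6 and 14.7 CPM in ad-CRE, against 21, 21.7, 22.8 and 23.2 CPM in ad-GFP, and fell (log2 fold change −0.58, SE 0.066, edgeR adjusted p = 3.54e-09). Nr1d2, encoding REV-ERBβ, at rank 3 of the family by FPKM, did not pass, at 65.7, 63.3, 64.2 and 72.7 CPM in ad-CRE, against 61.4, 67.1, 67.7 and 66.8 CPM in ad-GFP (log2 fold change 0.02, SE 0.045, edgeR adjusted p = 0.756). Rora, the activator at the same elements, was at 26.4, 26.4, 27.2 and 29.7 CPM in ad-CRE, against 19, 21.6, 21.5 and 21.6 CPM in ad-GFP, and rose without overlap (log2 fold change 0.39, SE 0.06, edgeR adjusted p = 1e-06). On the log2(FPKM + 1) and log2(FPKM + 0.1) scales Rora did not pass (limma adjusted p = 0.0662 and 0.071). Rorb did not pass either, at 1.09, 1.04, 0.463 and 1.21 CPM in ad-CRE, against 1.56, 1.22, 1.27 and 1.3 CPM in ad-GFP (log2 fold change −0.52, SE 0.27, edgeR adjusted p = 0.0832), although no library of one group reached into the other. Nr1d1 and Thra lie on opposite strands and share 263 exon bases, 8.55% of those of Nr1d1 and 5.7% of those of Thra, so reads there may have been counted for either, and both fell.

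Among the orphan receptors, for which no classical hormone is known, Nr2c1 rose while Nr2c2 and Nr6a1 fell. Nr2c1 (testicular receptor 2; ENSMUSG00000005897, chromosome 10, 94148023 to 94197211, plus strand) was at 34.4, 37.4, 37.9 and 35.6 CPM in ad-CRE, against 22.5, 22.8, 21.4 and 20.6 CPM in ad-GFP, and rose 1.66-fold (log2 fold change 0.73, SE 0.054, edgeR adjusted p = 3.28e-13). Its close relative Nr2c2 (testicular receptor 4) was at 59.9, 59.5, 58.6 and 65.5 CPM in ad-CRE, against 62.8, 70.0, 67.9 and 63.2 CPM in ad-GFP, an overlapping and small fall (log2 fold change −0.12, SE 0.045, edgeR adjusted p = 0.0187). That call was lost when ad-CRE replicate 1, 2 or 3 or ad-GFP replicate 2 or 3 was left out (edgeR adjusted p = 0.0508, 0.0568, 0.0706, 0.104 and 0.0535). Of the exon bases of Nr2c2, 30.7% are shared with Mrps25 on the opposite strand, which fell by a similar log2 fold change of −0.16 (edgeR adjusted p = 0.00441). Nr6a1, the germ cell nuclear factor, was at 25.9, 27.3, 28.4 and 30.2 CPM in ad-CRE, against 46.3, 50.8, 48.6 and 50.002 CPM in ad-GFP, and fell (log2 fold change −0.81, SE 0.052, edgeR adjusted p = 7.82e-15).

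The COUP transcription factors, orphan receptors that in development mark mesenchyme and vein, also divided. Nr2f2 (COUP-TFII) was at 21.2, 23.1, 22.3 and 23.8 CPM in ad-CRE, against 36.9, 37.4, 35.9 and 38.8 CPM in ad-GFP, and fell without overlap (log2 fold change −0.72, SE 0.053, edgeR adjusted p = 2.24e-13). Nr2f6 was at 31.3, 36.5, 35.8 and 26.4 CPM in ad-CRE, against 27.9, 27.1, 24.9 and 25.7 CPM in ad-GFP, and rose, although ad-CRE replicate 4 lay within the ad-GFP range (log2 fold change 0.30, SE 0.071, edgeR adjusted p = 0.000388). Over the COUP factors together, Nr2f6 made up 60.1% ± 3.2 of FPKM in ad-CRE and 43.7% ± 2.19 in ad-GFP, and Nr2f2 36.4% ± 3.16 in ad-CRE and 53.7% ± 1.67 in ad-GFP (SD, n = 4 each). Of the exon bases of Nr2f6, 54.4% are shared with Ocel1 on the opposite strand, which did not pass (0.04, edgeR adjusted p = 0.71). Nr2f1 (COUP-TFI) did not pass, at 1.9, 2.03, 1.43 and 1.55 CPM in ad-CRE, against 1.75, 1.28, 1.38 and 2.42 CPM in ad-GFP (log2 fold change 0.03, SE 0.23, edgeR adjusted p = 0.903).

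The NR4A receptors, which are switched on as immediate early genes and act without a known ligand, fell in 2 of 3 cases. Nr4a1 (NUR77) was at 9.14, 9.63, 9.16 and 10.02 CPM in ad-CRE, against 12.8, 11.4, 12.7 and 12.4 CPM in ad-GFP (log2 fold change −0.38, SE 0.083, edgeR adjusted p = 0.000163). Nr4a3 (NOR1; ENSMUSG00000028341, chromosome 4, 48045153 to 48086447, plus strand) was at 1.95, 1.98, 2.13 and 0.979 CPM in ad-CRE, with replicate 4 the lowest, against 3.36, 3.78, 3.46 and 3.79 CPM in ad-GFP (log2 fold change −1.01, SE 0.19, edgeR adjusted p = 2.22e-05). Nr4a2 (NURR1) was at 8.87, 9.52, 10.4 and 10.4 CPM in ad-CRE, against 11.5, 10.7, 11.1 and 10.4 CPM in ad-GFP, and did not pass (log2 fold change −0.16, SE 0.087, edgeR adjusted p = 0.0959).

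The tubule and liver receptors of the HNF4 pair were near the limit of detection. Hnf4a was at 0.362, 0.52, 0.602 and 0.806 CPM in ad-CRE, against 0.947, 1.43, 1.15 and 0.621 CPM in ad-GFP, and fell with overlapping groups (log2 fold change −0.89, SE 0.32, edgeR adjusted p = 0.0129), a call lost when ad-CRE replicate 1 or ad-GFP replicate 2 was left out (edgeR adjusted p = 0.0592 and 0.0742). Hnf4g was at 1.18, 1.3, 0.509 and 0.979 CPM in ad-CRE, against 1.09, 1.33, 1.5 and 0.994 CPM in ad-GFP, and did not pass (log2 fold change −0.31, SE 0.27, edgeR adjusted p = 0.304). Among the other receptors too low to test, Nr5a2 (LRH-1) had 12 counts in ad-CRE and 4 in ad-GFP. Nr2e1 had 2 counts in each group, and the photoreceptor gene Nr2e3 had 0 in ad-CRE and 7 in ad-GFP, all 7 of them in replicate 4. Nr5a1 (SF-1) and Nr0b2 (SHP) had 0 counts in ad-CRE and 2 in ad-GFP each, and Nr0b1 (DAX1) had 0 in all 8 libraries. None of these 11 untested receptors exceeded 13 counts in a library, so their differences were for the most part not detectable at this depth.

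The balance between close relatives was then examined within each library. For each of the 23 pairs of tested receptors within 1 subfamily (13 subfamilies), the log2 ratio of their counts was taken in every library, which cancels library size, and compared between groups by an exact two-sided permutation test. Each ratio was written with the receptor of higher fitted fold change on top, so the sign of its difference is set by that choice. In 17 pairs the groups did not overlap and the exact p was 0.0286, the smallest that 4 against 4 allows (0.0387 after Benjamini-Hochberg adjustment over the 23 pairs), with differences of 0.22 to 1.89 log2 units. All 7 pairs with opposite calls were among these 17, and they came from 6 subfamilies. Their calls came from the same libraries as the ratios, so that result was largely fixed beforehand and adds no separate support. Pairs of other genes were not examined, and since 66.2% of all single genes already separated the groups, the count of 17 says nothing particular about receptors.

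The log2 ratio of Rxrb to Rxra was 0.00 ± 0.096 in ad-CRE and −0.54 ± 0.14 in ad-GFP, a difference of 0.54 log2 units. That of Rarg to Rara was 0.52 ± 0.053 in ad-CRE and −0.01 ± 0.055 in ad-GFP, or a count ratio of 1.43 in ad-CRE and 0.996 in ad-GFP. For Nr2c1 over Nr2c2 it was −0.74 ± 0.12 in ad-CRE and −1.59 ± 0.078 in ad-GFP, and for Nr2f6 over Nr2f2 0.51 ± 0.25 in ad-CRE and −0.50 ± 0.084 in ad-GFP (SD, n = 4 each throughout). The other pairs with opposite calls were Nr1h2 over Nr1h3 (difference 1.61), Rarg over Rarb (0.99) and Esrrb over Esrrg (1.88). Receptors that fell together also fell unequally: the ratio of Ppard to Pparg counts was 20.3 in ad-CRE and 5.49 in ad-GFP, and that of Thra to Thrb 6.2 in ad-CRE and 2.61 in ad-GFP. The 6 pairs that did not pass were Hnf4g with Hnf4a (exact permutation p = 0.371), Nr2f6 with Nr2f1 (0.4), Esrrb with Esrra (0.0857), Nr3c1 with Nr3c2 (0.0571), Nr3c1 with Pgr (0.457) and Nr3c2 with Pgr (1.0). The glucocorticoid and mineralocorticoid receptors thus fell with a ratio of 24.7 in ad-CRE and 20.3 in ad-GFP, a difference that the test did not resolve.

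**Figure D4:**
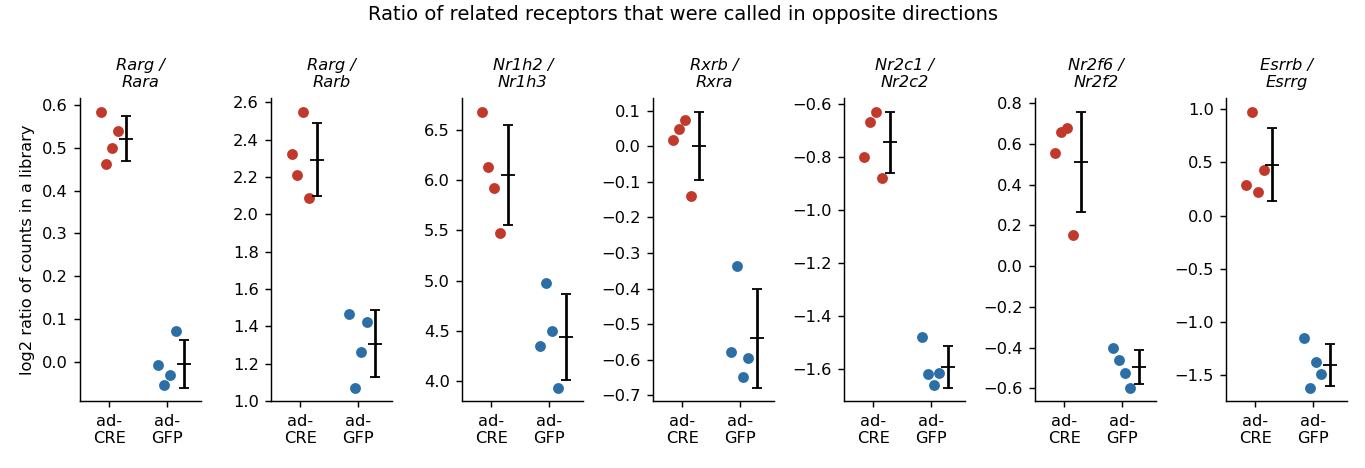
Log2 ratio of the counts of a pair of receptors of 1 subfamily in each library (y axis), with the 4 ad-CRE libraries left of the 4 ad-GFP libraries in each panel, for the 7 pairs with opposite calls. The groups do not overlap in any of the 7, and the differences run from 0.53 (Rarg over Rara) to 1.88 (Esrrb over Esrrg) log2 units.

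The proteins through which nuclear receptors act were followed in lists that leave the 46 receptors out. All list counts stand beside the 36.8% of all genes tested that rose, the 36.3% that fell and the 26.9% that did not pass, and no list was tested against other genes. Of 22 coactivators tested, 10 rose and 8 fell, with 4 not past the threshold (median −0.01). Carm1, an arginine methyltransferase that coactivates steroid receptors, rose (0.63), while Ppargc1a, encoding PGC-1α, the coactivator of PPARs and oestrogen-related receptors, was at 2.72 ± 0.361 CPM in ad-CRE and 10.2 ± 0.377 CPM in ad-GFP (SD, n = 4 each; log2 fold change −1.91). Hmga1 had −0.39 and Prmt1 0.25. Ppargc1b, singled out after its values were seen, fell with its relative (−1.64). Of 12 corepressors, 2 rose, 4 fell and 6 did not pass (median −0.02), with Hdac3 at 0.29, Tbl1xr1, part of the same corepressor complex, at −0.45, and Phb2 not past the threshold (0.01, edgeR adjusted p = 0.85). Of 13 chaperones and chaperone partners listed for the glucocorticoid receptor, 11 fell and 2 rose (median −0.21). Fkbp5 is counted here and among the glucocorticoid targets as well. Hsp90aa1 had −0.51, Ppp5c −0.40, Stip1 −0.30 and Hsp90ab1 −0.04, all of them falls.

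Known targets of the receptors were counted beside them. Of 15 glucocorticoid and mineralocorticoid targets and ligand enzymes, 8 rose, 5 fell and 2 did not pass (median 0.39), while Nr3c1 and Nr3c2 fell. The share of falls was near that of all genes, and the share of rises was above it. Errfi1 (1.32), Nfkbia (1.73) and Dusp1 (0.54) rose and the metallothionein gene Mt2 fell (−0.65). Named after their values were seen, Fkbp5, Per1, Tsc22d3 and Sgk1 fell (−0.34, −0.60, −0.21 and −0.66). Klf9, Ddit4, Lcn2, Hsd11b2 and Scnn1a, named in the same way, rose (0.60, 0.55, 0.39, 0.73 and 0.50). Of 24 PPAR targets, 6 rose, 11 fell and 7 did not pass (median −0.18). Lipoprotein lipase Lpl and the pyruvate dehydrogenase kinase Pdk4 both had −1.97, while Acadvl, of fatty acid oxidation, and the lipid droplet gene Plin2 rose (0.66 and 0.30). Of 15 LXR targets, 6 rose, 7 fell and 2 did not pass (median −0.13), with rises of Arl4c (0.97) and Scd2 (0.47) and the fall of Lpl.

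For retinoic acid, 11 of 23 targets and metabolic genes rose, 8 fell and 4 did not pass (median 0.19). Rdh10, the retinol dehydrogenase of the first step to retinoic acid, was at 277 ± 6.93 CPM in ad-CRE and 103 ± 3.12 CPM in ad-GFP (log2 fold change 1.43). Aldh1a1, a retinal dehydrogenase of the next step, was at 1.37 ± 0.101 CPM in ad-CRE and 14.7 ± 1.46 CPM in ad-GFP (−3.42; SD, n = 4 each). Aldh1a2 and Aldh1a3, retinal dehydrogenases as well and named after their values were seen, rose instead. Aldh1a2 was at 88.2 CPM in ad-CRE and 44.05 CPM in ad-GFP (0.999). Aldh1a3 was at 24.4 CPM in ad-CRE and 17.7 CPM in ad-GFP (0.465). The step as a whole thus did not move in a single direction. Btg2 rose (0.72), as did Tgm2 (0.22). The joint list of bile acid and xenobiotic receptor targets held 27 genes, of which 14 had enough reads. Among these 14 there were 12 falls and 0 rises, with 2 not past the threshold and a median of −1.15. The bile acid genes Abcb11, Slc51a, Slc51b and Fgf15 were too low to test. They had 3, 13, 2 and 8 counts in ad-CRE, against 11, 4, 1 and 4 in ad-GFP. Whether these 4 followed the rise of Nr1h4 was thus not tested. Named after their values were seen, Abcb4 fell (−2.33) and Sdc1 did not pass (−0.0004, edgeR adjusted p = 0.992). The joint list does not part targets of the bile acid receptor from those of the xenobiotic receptors. The glutathione transferase Gsta1 had −6.05, with a near-identical relative that leaves its value uncertain, and the export pumps Abcc2 and Abcc4 had −3.77 and −0.63. Of 16 genes of the vitamin D and thyroid hormone axis, 4 rose, 9 fell and 3 did not pass (median −0.34). Spp1, encoding osteopontin, rose (1.02), and Gc, the vitamin D binding protein, and Me1, a thyroid hormone target in liver, fell (−1.60 and −0.77). Chosen after their values were seen, Cyp24a1, which breaks down vitamin D, rose (4.63; 200 counts in ad-CRE and 7 in ad-GFP), and the deiodinases Dio2 and Dio3 fell (−3.25 and −5.84).

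Of 19 circadian clock genes, 8 rose, 5 fell and 6 did not pass (median 0.09), with Bhlhe40 at 0.86, Tef at 0.56 and Clock at −0.71. Of 26 targets of the oestrogen-related receptors and PGC-1, 7 rose, 12 fell and 7 did not pass (median −0.07). Mfn2 (−0.54), Idh3a (−0.55) and Mdh2 (−0.22) fell and the mitochondrial superoxide dismutase gene Sod2 rose (0.52). Of 11 HNF4 targets, 3 rose, 6 fell and 2 did not pass (median −0.54), with falls of the tight junction gene Cldn2 (−2.32) and the brush border gene Vil1 (−3.99). Of 12 oestrogen and progesterone receptor targets, 3 rose, 7 fell and 2 did not pass (median −0.23), beside the rise of Esr1. The growth factor gene Areg fell (−3.75), as did Ctsd (−0.11), and Bcl2 (0.76) and Hsd17b4 (0.60) rose. The remaining rise was that of Greb1 (0.98), named after its values were seen. Of 24 partners of the NR4A receptors and cAMP-inducible immediate early genes, 14 rose, 6 fell and 4 did not pass (median 0.21), with rises of Btg2, Junb (0.59), Fosl2 (0.44) and Ier3 (0.48) beside the falls of Nr4a1 and Nr4a3.

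**Figure D5:**
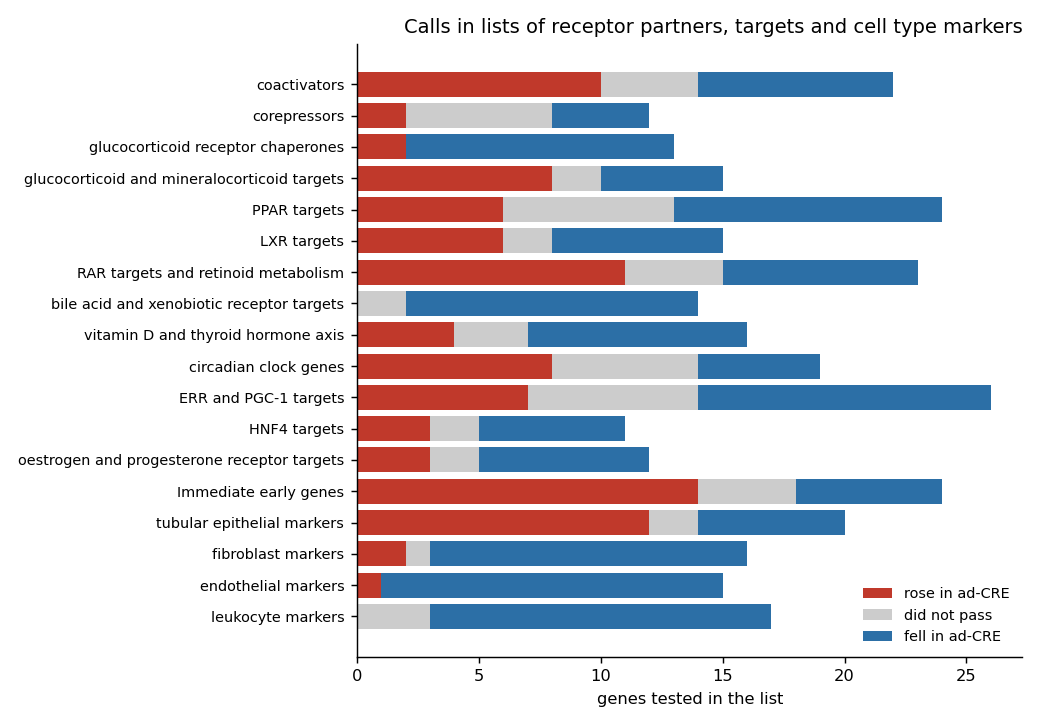
Number of tested genes that rose, did not pass or fell (x axis) in each of the 18 gene lists (y axis) at an edgeR adjusted p of 0.05, with the 46 receptors left out. Bile acid and xenobiotic receptor targets had 0 rises and 12 falls, and glucocorticoid receptor chaperones 2 rises and 11 falls.

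The marker lists give the setting of these changes. Among 20 markers of tubular epithelium, 12 rose and 6 fell, with 2 not past the threshold (median 0.44), with the keratin gene Krt8 at 1.41, Cldn4 at 1.46 and the injury marker Havcr1 at −2.02. Among 16 markers of fibroblasts, 13 fell and 2 rose, with 1 not past the threshold (median −1.02), among them Vim (−1.22), Col1a1 (−1.51) and Acta2 (−0.54). Of 15 endothelial markers, 1 rose and 14 fell (median −1.06), and their summed level was 113 to 124 CPM in ad-CRE and 245 to 262 CPM in ad-GFP. Emcn, Eng and Flt1 had −1.36, −1.15 and −1.56. Among 17 markers of leukocytes, 14 fell and 0 rose, with 3 not past the threshold (median −0.47) and 319 to 340 CPM in sum in ad-CRE and 425 to 493 CPM in ad-GFP, the T cell gene Cd3e at 0, and Cd68, Lyz2 and Adgre1 at −1.14, −0.56 and −0.74. The summed levels of all 4 lists did not overlap between groups, and their part in the receptor results was not tested.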

How the data were processed

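RNA-seq was done on 8 libraries, 4 ad-CRE and 4 ad-GFP, with a SMARTer mRNA-seq kit, per the labels' protocols. Builds GRCm38 and mm10 are named in the submitters' processing notes, whereas the sources used here do not give the aligner, counting tool, strand setting or annotation. Per the file headers, the authors deposited 1 table of 22274 genes that holds, per library, a whole-number read count and an FPKM, which divides by gene length as well as depth, beside the authors' mean FPKM, log2 fold change, p-value and FDR, which are not printed here. All per-library columns were matched to a sample by title, leaving 0 unmatched. No replicate looked like a copy of another, since chi-square over degrees of freedom was 1.69 to 3.14 between them.

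Counts were analysed with edgeR 4.0.16 in R 4.3.3. Genes were kept by filterByExpr, scaled with TMM factors and compared by the quasi-likelihood test, with Benjamini-Hochberg adjustment across the 13702 tested genes and a threshold of 0.05. SEs were taken as the absolute log2 fold change over the root of the F statistic. CPM are counts scaled to library size after TMM. "Rose" and "fell" are used only past the threshold. Ratios of related receptors were log2 ratios of counts with 0.5 added, compared by the exact permutation test of scipy 1.17.1, a test chosen after the data were seen.

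The receptors and the 18 gene lists were chosen with earlier results of these data known, and no list was tested as a set. Per-library values were given for the 6 largest called rises and falls, the 3 highest levels, receptors that did not pass and those compared within a class. In other lists, the 3 genes with the smallest p and the gene with the highest mean FPKM were named, with other names marked in the text, and some genes that this rule takes were left unreported. Alternatives were DESeq2 1.42.0 and its size factors, total counts, other filters, limma 3.58.1 (voom, and on log2 of the deposited FPKM plus 1 or 0.1), a replicate term and leaving out each library. Simulated counts were used to check the test. Gene coordinates came from GENCODE M21, in which 22219 gene IDs (99.75%) were found, and promoter windows from RefSeq. Figures were drawn with matplotlib 3.10.9.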

Additional observations from a re-analysis of the deposited data

Results flagged for a closer look

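Among 80 groups of 4 libraries, 6 held a library far from the other 3 in the level of a receptor, where chance alone gives about 1 in 20 groups. In ad-CRE, replicate 4 had 0.979 CPM of Nr4a3, against 1.95 to 2.13 CPM in the other ad-CRE libraries. The other 5 were in ad-GFP. Replicate 1 had 61.4 CPM of Nr1d2, against 66.8 to 67.7 CPM in the others, and 19.0 CPM of Rora, against 21.5 to 21.6 CPM. Replicate 3 had 125 CPM of Nr3c1, against 120.1 to 120.8 CPM. Replicate 4 had 8.07 CPM of Thra, against 7.26 to 7.35 CPM. It also had 0.435 CPM of Nr2e3, a gene at 0 in the other 7 libraries, and with no filter on low counts this receptor passed on that library alone (edgeR adjusted p = 0.0238).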

How the results depend on the processing

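Counts of receptors and of genes that rose or fell stayed within 1.5 times their values in all settings run, among them scaling by DESeq2 size factors and by total counts. The median log2 fold change of the receptors was −0.27 with a filter of 5 CPM in 4 libraries (23 receptors tested), −0.38 with limma voom, −0.17 on the log2(FPKM + 1) scale and −0.27 on the log2(FPKM + 0.1) scale, and −0.39 to −0.24 when 1 library was left out. Of the 29 calls, 27 were kept with DESeq2 (Esrrb and Vdr lost), 24 on both FPKM scales (Esrrb, Hnf4a, Nr2c2, Rora and Vdr lost), 25 to 28 when 1 library was left out, and 20 of the 20 still tested with the 5 CPM filter. Pparg and Nr3c2 reached 5 CPM in ad-GFP alone, so their place among these 20 rests on the group where they were high. The sign turned in 3 receptors that passed in no setting: Nr1d2 had −0.012 with total counts, −0.0088 with the 5 CPM filter, −0.026 and −0.028 on the FPKM scales and −0.026 to 0.040 when 1 library was left out, Esrra had 0.011 with no filter on low counts, and without any 1 library Esrra had −0.025 to 0.014 and Nr2f1 −0.087 to 0.23. Replicate numbers did not pair the libraries, with correlations of same-numbered deviations from −0.06 to 0.07, and with a replicate block 28 of the 29 calls were kept, without Vdr (−0.28, edgeR adjusted p = 0.0548). On the log2(FPKM + 1) scale the differences of pair ratios shrank for low receptors, from 1.25 to 0.11 for Thra over Thrb, and less on the log2(FPKM + 0.1) scale (0.98). The cause of these changes was not tested. Receptors under 1 FPKM rest on few reads.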
